A study of Homo sapiens with 12 samples.

Results

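A list of 10 genes of amino acid supply and endoplasmic reticulum (ER) stress was followed in the cell lines HCC70 and MDA-MB-231 after treatment with JQ1. Both lines were derived from triple-negative breast tumours, which lack the oestrogen and progesterone receptors and amplified ERBB2. The rule gives the genes by name, with no measured value as a threshold, but they were chosen with earlier results of these data known. Of the 10, 8 had a transcript cluster with a gene symbol among the 14884 genes tested. These were PSAT1, ASNS, XBP1, DDIT3, ATF3, TRIB3, VLDLR and STC2. CHAC1 and HSPA5 were not analysed here. JQ1 was given at 500 nM, DMSO at 0.1% served as the vehicle, cells were harvested after 72 hours, and 150 ng of total RNA per sample was hybridised to Human Gene 2.0 ST arrays. The 12 arrays fell into 4 groups of 3: HCC70 with JQ1, HCC70 with vehicle, MDA-MB-231 with JQ1 and MDA-MB-231 with vehicle. JQ1 blocks the acetyl-lysine pockets of BET bromodomain proteins and releases them from chromatin. Each line stands for 1 tumour, and no label states whether replicate arrays stem from independent cultures. The p-values therefore measure only the spread between these samples, which may be technical.

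Cells sense a lack of amino acids or misfolded protein in the ER through separate arms that meet at the integrated stress response. Kinases phosphorylate the initiation factor eIF2alpha, most translation slows, and the transcription factor ATF4 is made and switches on genes of amino acid synthesis, transport and tRNA charging together with DDIT3, TRIB3 and ATF3. In the ER arm the sensor encoded by ERN1 splices the messenger RNA of XBP1, and the protein made from the spliced form raises folding and degradation capacity. The arrays read the total signal of a transcript cluster, so that spliced and unspliced XBP1 are not told apart.

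Promoters are shown for the 3 measured members with a searched motif in a window before a start site, because these motifs are the textbook sites of the factors that act in both stress arms. Sequences are the 250 bases before an annotated start site from RefSeq (GRCh38.p14), 5′ to 3′ on the gene's strand, with the whole motif match in capitals. The motifs searched on both strands were the C/EBP-ATF response element core TGATGNAA, the ER stress response element (CCAAT, then 9 free bases, then CCACG) and the cyclic AMP response element TGACGTCA. All 10 listed genes had at least 1 window in the table.
ASNS (chr7:97872409-97872658, minus strand): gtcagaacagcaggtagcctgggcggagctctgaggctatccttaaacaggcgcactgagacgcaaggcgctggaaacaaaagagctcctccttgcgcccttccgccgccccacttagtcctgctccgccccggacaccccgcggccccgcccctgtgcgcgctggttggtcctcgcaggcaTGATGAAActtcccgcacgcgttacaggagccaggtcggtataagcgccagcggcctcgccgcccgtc
XBP1 (chr22:28800570-28800819, minus strand): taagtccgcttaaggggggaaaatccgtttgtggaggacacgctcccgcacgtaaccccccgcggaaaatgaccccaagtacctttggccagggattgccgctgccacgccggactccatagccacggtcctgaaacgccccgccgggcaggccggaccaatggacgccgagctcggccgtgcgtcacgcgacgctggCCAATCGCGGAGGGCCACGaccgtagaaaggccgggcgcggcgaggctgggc
ATF3 (chr1:212565157-212565406, plus strand): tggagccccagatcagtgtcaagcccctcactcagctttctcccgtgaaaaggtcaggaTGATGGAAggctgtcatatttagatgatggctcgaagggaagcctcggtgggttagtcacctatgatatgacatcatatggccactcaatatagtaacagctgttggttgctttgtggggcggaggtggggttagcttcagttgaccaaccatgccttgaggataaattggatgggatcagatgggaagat
In ASNS the bases TGATGAAA ended 61 bases before the start site, in XBP1 the bases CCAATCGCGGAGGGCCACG ended 34 bases before it, and in ATF3 the bases TGATGGAA ended 184 bases before it. The other annotated start site of ASNS, XBP1 and ATF3 had no match in its window.

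TGATGNAA was present for 3 of the 10 listed genes (ASNS, ATF3 and CHAC1), against 3.89% of 27305 genes with a promoter in the table. The ER stress response element was present for 2 of 10 (XBP1 and HSPA5), against 0.0916% of genes, and TGACGTCA for 0 of 10, against 2.03%. PSAT1, DDIT3, TRIB3, VLDLR and STC2 had none of these letters in the windows searched, which says nothing of the factors that bind there or elsewhere. The motifs were chosen as textbook sites of these stress arms, so the counts are a description and not a test of enrichment. A match is a run of letters and not a measured site.

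The lines were checked against their defining markers. EPCAM and KRT5, of epithelial and basal cells, averaged 10.31 ± 0.13 and 8.53 ± 0.39 on the log2 scale in HCC70 with vehicle (SD, n = 3), against 7.41 ± 0.12 and 4.67 ± 0.96 in MDA-MB-231 with vehicle. The other 2 of 4 measured epithelial genes were the keratins KRT18, lower in HCC70 with vehicle than in MDA-MB-231 with vehicle (difference -0.28 ± 0.09 SE, limma adjusted p = 0.0233), and KRT8, which did not pass (-0.25 ± 0.11, adjusted p = 0.0764). Vimentin, VIM, was lower in HCC70, at 7.13 ± 0.11 against 10.42 ± 0.05 in MDA-MB-231. PGR, the progesterone receptor, lay below the lower quartile of all genes in every group (lower quartiles 4.78 to 4.81). ESR1 averaged 4.89 to 5.09, above the lower quartile in every group, and ERBB2 was not analysed here. Of 8 stromal and endothelial markers 4 were measured and 0 changed with JQ1 in either line (limma). Of 8 blood cell markers 3 were measured: CD68 rose and CD14 fell in HCC70, and CSF1R fell in MDA-MB-231, and their part in the results below was not tested. The summed linear signal of these 3 genes was 1440.5 to 1526 in HCC70 with JQ1 against 1045 to 1104 with vehicle, and 1866 to 1931 in MDA-MB-231 with JQ1 against 1827 to 2046 with vehicle. Epithelial and mesenchymal markers moved with JQ1 as well: the summed signal of the 4 measured epithelial genes was 4406 to 4657 in HCC70 with JQ1 against 3077 to 3293 with vehicle, and 2655 to 2851 in MDA-MB-231 with JQ1 against 1936 to 2110 with vehicle. In both lines KRT18 rose. EPCAM fell in MDA-MB-231 (log2 change -1.74 ± 0.12, limma adjusted p = 4.28e-07), and the mean log2 level of the 4 genes there was 7.18 to 7.36 with JQ1 against 7.32 to 7.69 with vehicle. The sum of the 3 measured mesenchymal genes was 114 to 148 in HCC70 with JQ1 against 721 to 766 with vehicle, and 2744 to 2897 in MDA-MB-231 with JQ1 against 4453 to 4789 with vehicle. Their part was not tested either. Arrays of 1 group correlated at 0.989 to 0.995 over all genes, and each array differed from the mean of the other arrays in its group by a root mean square of 0.179 to 0.252 on the log2 scale, with the arrays numbered 3 highest in every group but HCC70 vehicle.

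Under JQ1 the amino acid and ER stress genes were mostly lower. In HCC70 the limma test called 5 of the 8 members lower (PSAT1, VLDLR, XBP1, STC2 and TRIB3) and 2 higher (ATF3 and DDIT3), against a background of 12.5% of all genes called lower and 9.18% higher. In MDA-MB-231 it called 6 lower (PSAT1, TRIB3, VLDLR, DDIT3, ASNS and XBP1) and 0 higher, against 17.0% and 10.8% of all genes. The median log2 change of the 8 members was -0.58 in HCC70 and -0.87 in MDA-MB-231, beside medians over all genes of 0.01 and 0.02. The members PSAT1, VLDLR, XBP1 and TRIB3, 4 of the 8, were called lower in both lines, as were 6.89% of all genes. No member was called higher in both lines or lower in HCC70 and higher in MDA-MB-231, patterns of 4.09% and 0.531% of all genes. DDIT3 was called higher in HCC70 and lower in MDA-MB-231, a combination found in 0.598% of all genes. The arrays of JQ1 and vehicle did not overlap for 6 members that were lower and 2 that were higher in HCC70, against 19.6% and 17.8% of all genes. In MDA-MB-231 this held for 6 lower and 0 higher members, against 21.3% and 16.7%. Calls were made at an adjusted p under 0.05, with Benjamini-Hochberg adjustment over all 14884 genes. Because the members were chosen with earlier results of these data known, their counts are a description and not a test of enrichment. As deposited, 57.7% of the called genes in HCC70 and 61.2% in MDA-MB-231 were lower, and after each array was centred on its median 43.9% and 48.9% were (48.6% in MDA-MB-231 after quantile normalization). The counts of members called lower after that centring were 4 in HCC70, where TRIB3 no longer passed, and 6 in MDA-MB-231.

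**Figure D1:**
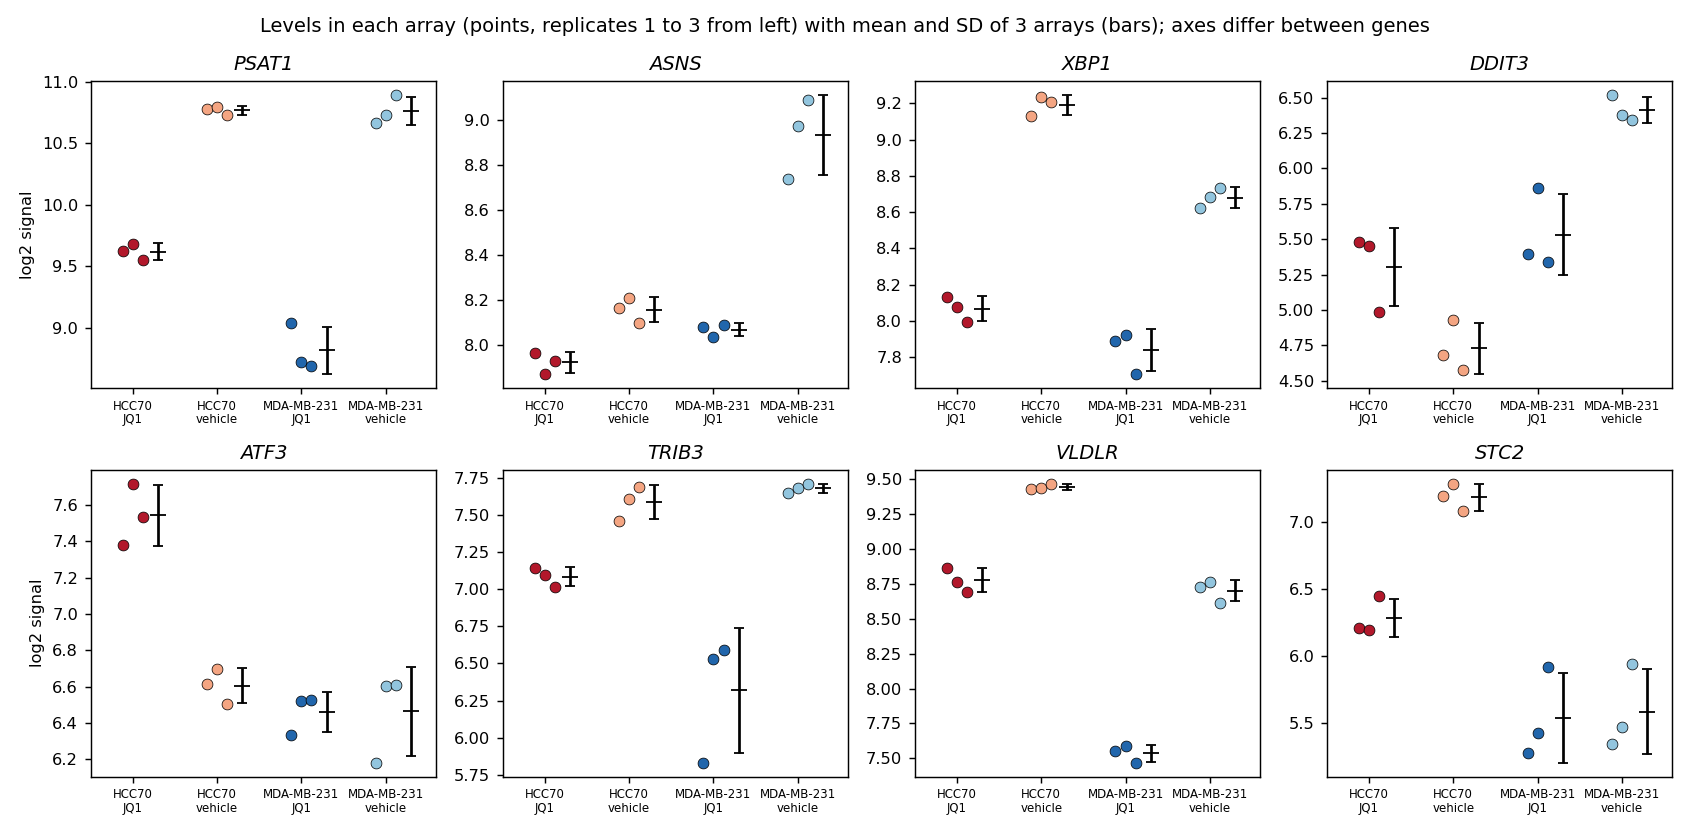
Log2 signal (vertical axis, its own range for each gene) of the 8 measured genes in each of the 12 arrays, by group. Points are replicates 1 to 3 from left to right and bars the mean with the SD of 3 arrays; PSAT1 lay between 8.69 and 9.68 in the 6 JQ1 arrays of both lines and between 10.67 and 10.89 in the 6 vehicle arrays.

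PSAT1 encodes phosphoserine aminotransferase, an enzyme of the pathway that makes serine from a glycolytic intermediate. Its log2 signals were 9.63, 9.68 and 9.55 in HCC70 with JQ1, against 10.78, 10.79 and 10.73 with vehicle. In MDA-MB-231 they were 9.04, 8.73 and 8.69 with JQ1, against 10.67, 10.73 and 10.89 with vehicle. All JQ1 arrays lay below all vehicle arrays in both lines, and the vehicle arrays of the lines overlapped. PSAT1 fell 2.21-fold in HCC70 (log2 change -1.15 ± 0.10 SE, limma adjusted p = 6.05e-06) and 3.85-fold in MDA-MB-231 (-1.94 ± 0.10, adjusted p = 3.49e-08). By size it ranked 202 among the 1863 falls called in HCC70 and 97 among the 2532 in MDA-MB-231. The signal comes from RNA of whole cultures, so fewer cells expressing a gene and less RNA per cell cannot be told apart, here and for every gene below.

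ASNS encodes asparagine synthetase, a classic target of the amino acid response, whose promoter is printed above. It read 7.97, 7.87 and 7.93 in HCC70 with JQ1, against 8.16, 8.21 and 8.10 with vehicle, and 8.08, 8.03 and 8.09 in MDA-MB-231 with JQ1, against 8.74, 8.97 and 9.09 with vehicle. The JQ1 arrays lay below the vehicle arrays in both lines, narrowly in HCC70. In MDA-MB-231 ASNS fell 1.82-fold (log2 change -0.87 ± 0.09, limma adjusted p = 1.49e-05). In HCC70 the change of -0.23 ± 0.09 did not pass (adjusted p = 0.0988, 95% interval -0.44 to -0.03). It passed there with array weights (adjusted p = 0.00828), among genes above the median level (0.0374) and with a variance trend and robust moderation (0.0493).

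XBP1 encodes the transcription factor of the ERN1 arm, and its promoter holds the ER stress response element shown above. Its signals were 8.13, 8.08 and 8.0 in HCC70 with JQ1, against 9.13, 9.24 and 9.21 with vehicle. In MDA-MB-231 they were 7.89, 7.92 and 7.71 with JQ1, against 8.62, 8.68 and 8.74 with vehicle. None of the 4 groups overlapped, and JQ1-treated HCC70 lay below vehicle-treated MDA-MB-231. XBP1 fell 2.18-fold in HCC70 (log2 change -1.12 ± 0.08, limma adjusted p = 1.46e-06) and 1.79-fold in MDA-MB-231 (-0.84 ± 0.08, adjusted p = 9.00e-06).

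DDIT3, also known as CHOP, is a transcription factor made late in ER stress and linked to cell death. It read 5.48, 5.45 and 4.99 in HCC70 with JQ1, against 4.68, 4.93 and 4.58 with vehicle. The JQ1 arrays were higher, and replicate 3 exceeded the highest vehicle array by little. In MDA-MB-231 it read 5.40, 5.86 and 5.34 with JQ1, against 6.52, 6.38 and 6.34 with vehicle, and there the JQ1 arrays were lower. DDIT3 rose in HCC70 (log2 change 0.58 ± 0.16, limma adjusted p = 0.0214) and fell 1.84-fold in MDA-MB-231 (-0.88 ± 0.16, adjusted p = 0.00115). The vehicle level in HCC70, 4.73 ± 0.18, was under the lower quartile over all genes of that group (4.81). Whether this dim level affects the size of the rise, 1.49-fold, was not tested. The rise missed the threshold without HCC70 JQ1 replicate 1 or 2, or vehicle replicate 1 or 3 (adjusted p = 0.0686 to 0.0883), and with all transcript clusters tested (0.0574).

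ATF3 is a stress-induced transcription factor of the same family as ATF4, also known as an immediate early gene. Its signals were 7.38, 7.72 and 7.53 in HCC70 with JQ1, against 6.61, 6.70 and 6.51 with vehicle, so that all JQ1 arrays were higher. In MDA-MB-231 they were 6.34, 6.52 and 6.53 with JQ1, against 6.18, 6.60 and 6.61 with vehicle, and the arrays overlapped. ATF3 rose 1.92-fold in HCC70 (log2 change 0.94 ± 0.13, limma adjusted p = 0.000183), rank 114 among 1366 rises called. In MDA-MB-231 the change of -0.0023 ± 0.13 did not pass (adjusted p = 0.993), with a 95% interval of -0.28 to 0.28.

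TRIB3 encodes a pseudokinase that DDIT3 and ATF4 induce and that is reported to restrain AKT signalling. It read 7.14, 7.10 and 7.02 in HCC70 with JQ1, against 7.46, 7.60 and 7.69 with vehicle. In MDA-MB-231 it read 5.83, 6.53 and 6.59 with JQ1, against 7.65, 7.68 and 7.71 with vehicle. The JQ1 arrays were below the vehicle arrays in both lines, and replicate 1 of MDA-MB-231 with JQ1 stood lowest of all. TRIB3 fell 2.57-fold in MDA-MB-231 (log2 change -1.36 ± 0.16, limma adjusted p = 3.48e-05), and without that replicate by 1.12. In HCC70 the fall was 1.41-fold (-0.50 ± 0.16, adjusted p = 0.0416). That call ended without any 1 of the 6 HCC70 arrays or of the 3 MDA-MB-231 vehicle arrays (adjusted p = 0.0535 to 0.134), and without the 3 arrays numbered 3 that differed most from their groups (0.102). It also ended after centring on array medians (0.0721), quantile normalization (0.0962) and with all transcript clusters tested (0.10).

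VLDLR encodes a lipoprotein receptor that the PERK arm of ER stress has been reported to induce in liver cells. Its signals were 8.87, 8.77 and 8.69 in HCC70 with JQ1, against 9.43, 9.43 and 9.47 with vehicle. In MDA-MB-231 they were 7.55, 7.59 and 7.47 with JQ1, against 8.73, 8.76 and 8.62 with vehicle. The JQ1 arrays were lower in both lines, and those of HCC70 with JQ1 overlapped MDA-MB-231 with vehicle. VLDLR fell 1.59-fold in HCC70 (log2 change -0.67 ± 0.08, limma adjusted p = 6.76e-05) and 2.24-fold in MDA-MB-231 (-1.17 ± 0.08, adjusted p = 3.02e-07).

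STC2 encodes stanniocalcin 2, a secreted glycoprotein induced in the unfolded protein response. It read 6.21, 6.20 and 6.44 in HCC70 with JQ1, against 7.19, 7.28 and 7.08 with vehicle, with no overlap. In MDA-MB-231 it read 5.27, 5.42 and 5.92 with JQ1, against 5.34, 5.47 and 5.94 with vehicle, where the arrays overlapped and replicate 3 was the highest in each group. STC2 fell 1.87-fold in HCC70 (log2 change -0.90 ± 0.18, limma adjusted p = 0.00238). In MDA-MB-231 the change of -0.04 ± 0.18 did not pass (adjusted p = 0.887, 95% interval -0.43 to 0.34).

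**Figure D2:**
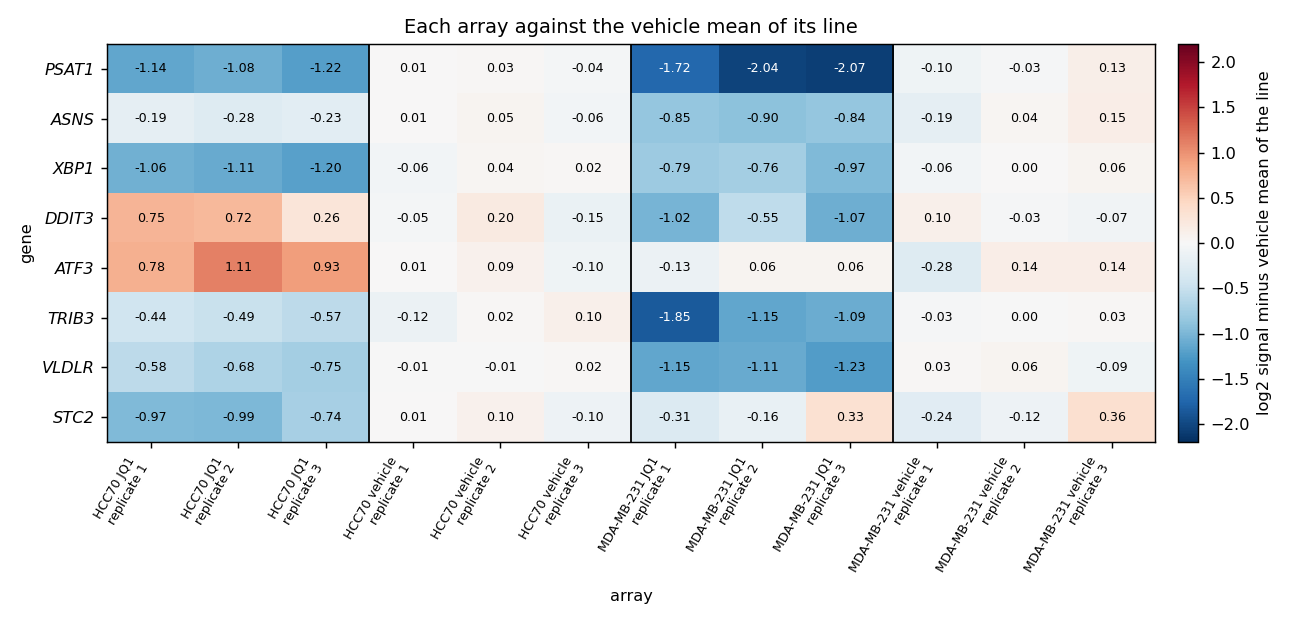
Log2 signal of each array (columns, 3 for each group) minus the mean of the 3 vehicle arrays of its line, for the 8 measured genes (rows), on a colour scale from blue (lower) to red (higher). PSAT1, ASNS, XBP1, TRIB3 and VLDLR were below 0 in all 6 JQ1 arrays, and ATF3 and DDIT3 were above 0 in the 3 JQ1 arrays of HCC70.

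The next comparison asked whether the JQ1 effect itself differed between the lines, by the interaction term (HCC70 effect minus MDA-MB-231 effect), which uses the same vehicle arrays as the comparisons above. It was called positive for 6 of the 8 members and negative for 1, against 9.02% and 5.95% of all genes. DDIT3 had the largest difference of the 8, 1.46 ± 0.23 (limma adjusted p = 0.000872). Its HCC70 vehicle level, 4.73, lay just under the lower quartile of all genes (4.81). ATF3 followed with 0.94 ± 0.18 (adjusted p = 0.00348), from a rise in HCC70 and no called change in MDA-MB-231. For genes that fell in both lines a positive difference means a smaller fall in HCC70: it was 0.80 ± 0.15 for PSAT1 (adjusted p = 0.00247), 0.86 ± 0.23 for TRIB3 (adjusted p = 0.0223) and 0.50 ± 0.11 for VLDLR (adjusted p = 0.01). For ASNS it was 0.63 ± 0.13 (adjusted p = 0.00577).

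STC2 went the other way, with a difference of -0.86 ± 0.25 (limma adjusted p = 0.036), a larger fall in HCC70. That call ended without any 1 of 8 arrays (adjusted p = 0.0515 to 0.0868), which were all HCC70 arrays except JQ1 replicate 3, together with MDA-MB-231 vehicle replicates 1 and 2 and JQ1 replicate 3. The call for TRIB3 ended without HCC70 vehicle replicate 1 or JQ1 replicate 1 (adjusted p = 0.0587 and 0.0507), and both ended with all transcript clusters tested (0.0882 for STC2 and 0.0593 for TRIB3). XBP1 did not pass, with a difference of -0.28 ± 0.12 (adjusted p = 0.147, 95% interval -0.54 to -0.02), though it did after quantile normalization (adjusted p = 0.0443) and with array weights (0.0489).

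**Figure D3:**
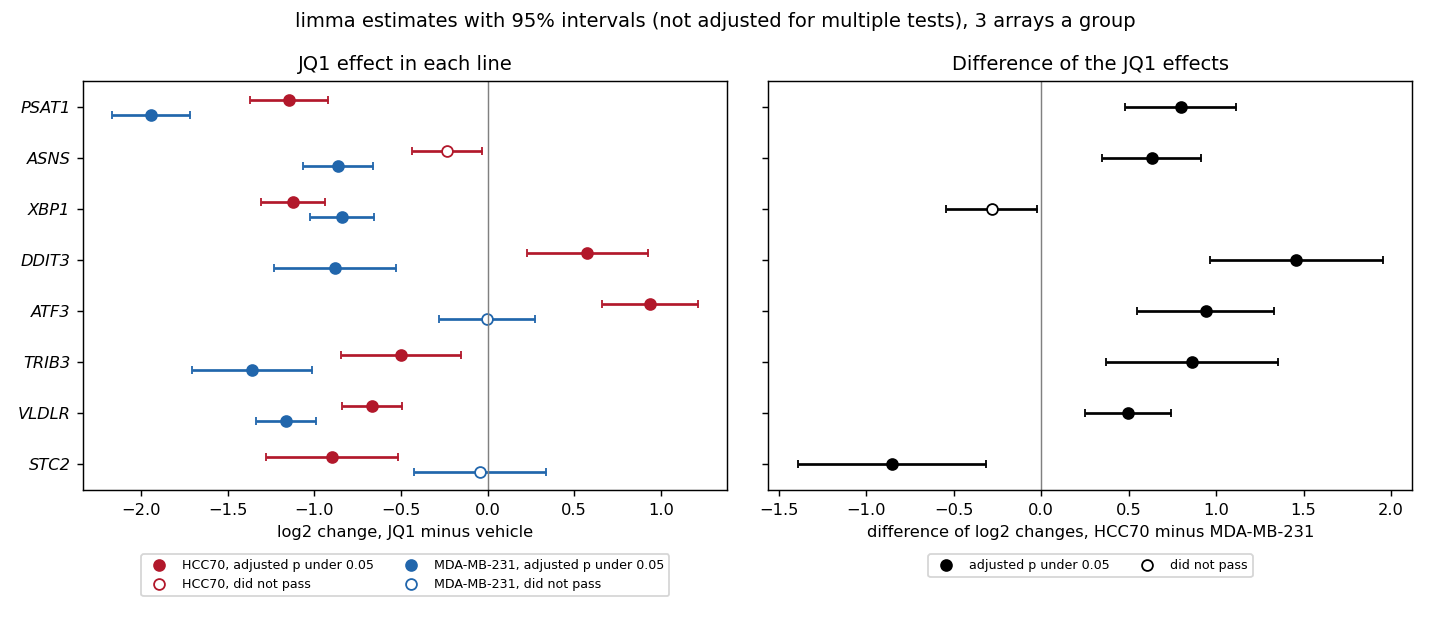
Left, log2 change with JQ1 (horizontal axis) of each gene in HCC70 (red) and MDA-MB-231 (blue); right, the difference of these changes (black), HCC70 minus MDA-MB-231. Points are limma estimates, bars 95% intervals and open points did not pass at an adjusted p under 0.05; the intervals of DDIT3 lie on opposite sides of 0 in the lines.

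Without JQ1 the lines already differed in 5 of the 8 members, 3 higher and 2 lower in HCC70, against 23.8% and 23.2% of all genes. The arrays did not overlap for these 3 and 2 members, against 28.5% and 26.7% of all genes. Vehicle-treated HCC70 had more STC2 (7.18 ± 0.10 against 5.58 ± 0.32 in vehicle-treated MDA-MB-231, SD, n = 3, difference 1.6 ± 0.18 SE, limma adjusted p = 5.39e-06). It also had more VLDLR (difference 0.74 ± 0.08, adjusted p = 4.82e-06) and XBP1 (0.51 ± 0.08, adjusted p = 0.00021). DDIT3 was lower in HCC70 with a difference of -1.69 ± 0.16 (4.73 ± 0.18 against 6.41 ± 0.09, adjusted p = 1.58e-06). The HCC70 level of DDIT3 lay below the lower quartile, and its effect on the size of the difference was not tested. ASNS was lower in HCC70, at 8.16 ± 0.06 against 8.93 ± 0.18 in MDA-MB-231 (difference -0.78 ± 0.09, adjusted p = 1.19e-05). PSAT1, ATF3 and TRIB3 did not pass, with differences of 0.0037 ± 0.10, 0.14 ± 0.13 and -0.09 ± 0.16 and 95% intervals of -0.22 to 0.23, -0.14 to 0.42 and -0.44 to 0.25.

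Over the 4 groups some genes shared an order of mean levels. STC2 and VLDLR were ordered by line first, with HCC70 vehicle on top, then HCC70 with JQ1, MDA-MB-231 vehicle and MDA-MB-231 with JQ1, and DDIT3 had both MDA-MB-231 means above both HCC70 means. For DDIT3 the neighbours HCC70 with JQ1 (5.31 ± 0.28) and MDA-MB-231 with JQ1 (5.53 ± 0.29) overlapped. PSAT1, XBP1 and TRIB3 were ordered by treatment first: both vehicle groups lay above both JQ1 groups, and MDA-MB-231 with JQ1 was lowest. The vehicle groups overlapped for PSAT1 and TRIB3 and not for XBP1. For ATF3 HCC70 with JQ1 stood alone and the neighbours among the other 3 groups overlapped. ASNS too had both vehicle groups above both JQ1 groups. For this gene MDA-MB-231 with vehicle was highest and HCC70 with JQ1 lowest, with no overlap between neighbours.

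Other genes of the same pathways were taken from 7 lists that hold none of the members. These lists too were written with earlier results of these data known, so their counts are descriptive. None of the 10 amino acid transporters listed was analysed here. The clearest group by count was that of the cytosolic aminoacyl-tRNA synthetases, which load amino acids onto tRNA. Of 13 measured synthetases 9 were called lower and 0 higher in HCC70, against 12.5% and 9.18% of all genes. In MDA-MB-231 13 were called lower, against 17.0% of all genes. The median log2 changes were -0.30 in HCC70 and -1.06 in MDA-MB-231. In HCC70 the count was 5 after centring on array medians, 5 with all transcript clusters tested and 6 to 9 when single arrays were left out. In MDA-MB-231 the count was 12 whenever a single array was left out. EPRS1 lay nearest the threshold there (-0.21 ± 0.07, limma adjusted p = 0.0483). The leucyl, isoleucyl and asparaginyl enzymes had the smallest p in HCC70 and fell there by 0.86 ± 0.09 (LARS1), 0.60 ± 0.08 (IARS1) and 0.50 ± 0.07 (NARS1). In MDA-MB-231 the methionyl, tyrosyl and alanyl enzymes fell by 1.72 ± 0.10 (MARS1), 1.65 ± 0.10 (YARS1) and 1.11 ± 0.07 (AARS1). YARS1 and AARS1 did not pass in HCC70, with changes of -0.18 ± 0.10 and -0.14 ± 0.07 (limma adjusted p = 0.277 and 0.186). The difference of the JQ1 effects was called for 11 of the 13 synthetases, all positive, against 9.02% of all genes. Positive is the direction of smaller falls in HCC70.

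Among 7 measured serine, glycine and one-carbon enzymes, which surround PSAT1 in its pathway, 2 were called lower in HCC70 and 4 in MDA-MB-231. Of all genes 12.5% and 17.0% were called lower, and the HCC70 count is within 2 genes of that share. The median log2 changes of the list were -0.22 in HCC70 and -0.59 in MDA-MB-231. PHGDH, the enzyme before PSAT1, read 8.90, 8.78 and 8.83 in HCC70 with JQ1, against 9.61, 9.72 and 9.79 with vehicle, and fell by 0.87 ± 0.11. In MDA-MB-231 PHGDH was at 5.89 ± 0.18 with JQ1 and 6.05 ± 0.13 with vehicle and did not pass (limma adjusted p = 0.301). PSPH, the enzyme after PSAT1, fell by 0.59 ± 0.10 in MDA-MB-231 and had a change of -0.28 ± 0.10 in HCC70 (adjusted p = 0.066). The mitochondrial enzyme MTHFD1L fell in both lines, by 0.57 ± 0.09 in HCC70 and 1.58 ± 0.09 in MDA-MB-231. SHMT2, which splits serine in mitochondria, fell by 1.13 ± 0.10 in MDA-MB-231. Of 5 other amino acid synthesis enzymes 2 were called lower in HCC70 (PYCR1, of proline synthesis, by 0.70 ± 0.10, and CBS by 0.65 ± 0.14). That count too is within 2 genes of the 12.5% of all genes. In MDA-MB-231 3 were called lower, against 17.0% of all genes. They were ASS1, of arginine synthesis (by 1.10 ± 0.12), PYCR1 (0.59 ± 0.10) and CTH (0.64 ± 0.16). CTH missed the threshold without the 3 arrays numbered 3 (adjusted p = 0.103).

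Of 9 measured regulators and targets of the integrated stress response, 1 was called lower and 1 higher in HCC70, near the 12.5% and 9.18% of all genes. In MDA-MB-231 5 were called lower and 1 higher, against 17.0% and 10.8% of all genes. The factor ATF5 rose in both lines, by 0.68 ± 0.09 in HCC70 and 0.31 ± 0.09 in MDA-MB-231. In MDA-MB-231 that call ended without any 1 of 4 arrays (vehicle replicate 1 or 3, JQ1 replicate 1 or 2; adjusted p = 0.0549 to 0.079), without the 3 arrays numbered 3 (0.0822) and with all transcript clusters tested (0.0606). VEGFA, the angiogenic growth factor, fell by 0.70 ± 0.10 in HCC70 and fell by 2.11 ± 0.10 in MDA-MB-231. In MDA-MB-231 the secreted factor GDF15 fell by 0.86 ± 0.13 and SESN2, a leucine sensor of the mTORC1 pathway, by 0.64 ± 0.10. ATF4, singled out after its values were seen because it drives this response, read 9.32, 9.55 and 9.54 in HCC70 with JQ1, against 9.65, 9.83 and 9.75 with vehicle, and did not pass (-0.28 ± 0.14, limma adjusted p = 0.193). In MDA-MB-231 ATF4 read 8.77, 8.79 and 8.84 with JQ1, against 9.16, 9.61 and 9.78 with vehicle, and fell by 0.72 ± 0.14. The fifth gene called lower there, also outside the naming rule, was EIF4EBP1, a brake on translation, by 0.46 ± 0.15.

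Of 6 measured eIF2alpha kinases and ER sensors 2 were called lower in HCC70, against 12.5% of all genes. In MDA-MB-231 2 were called lower and 1 higher, against 17.0% and 10.8% of all genes, and with 6 genes each count is within 1 or 2 genes of that share. EIF2AK2, the kinase PKR, fell in both lines, by 0.66 ± 0.10 in HCC70 and 0.49 ± 0.10 in MDA-MB-231. EIF2AK4, the amino acid sensor GCN2, fell by 0.46 ± 0.12 in HCC70, a call that ended without HCC70 vehicle replicate 3 (limma adjusted p = 0.0554). ERN1, which splices XBP1, rose by 0.98 ± 0.13 in MDA-MB-231, where XBP1 fell, and had a change of 0.20 ± 0.13 in HCC70 (adjusted p = 0.35). EIF2AK3, the ER stress kinase PERK, had a change of -0.31 ± 0.10 in MDA-MB-231 (adjusted p = 0.0328), which did not pass with the replicate number as a block (adjusted p = 0.0591), each line fitted alone (0.0836), quantile normalization (0.136), centring on array medians (0.0819) or all transcript clusters (0.076). It also missed the threshold without MDA-MB-231 vehicle replicate 1 or 2, or JQ1 replicate 2 or 3 (0.072 to 0.141).

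ER chaperones and foldases, which with HSPA5 carry out folding, were called lower in 0 and higher in 2 of 9 measured genes in HCC70. Of all genes 12.5% and 9.18% were, so both HCC70 counts lie near the background share. In MDA-MB-231 6 of the 9 were called lower and 0 higher, against 17.0% and 10.8% of all genes. The median log2 changes were 0.0053 in HCC70 and -0.44 in MDA-MB-231. HYOU1, a large ER chaperone of the HSP70 class, read 9.28, 9.36 and 9.38 in HCC70 with JQ1, against 8.97, 8.93 and 8.99 with vehicle, and rose by 0.38 ± 0.07. In MDA-MB-231 HYOU1 read 8.92, 8.97 and 8.88 with JQ1, against 9.60, 9.59 and 9.55 with vehicle, and fell by 0.66 ± 0.07. HYOU1 has 2 transcript clusters, and with their mean in place of the brighter one the change in MDA-MB-231 was -0.32 (limma adjusted p = 0.00823) and the difference of the JQ1 effects 0.69. MANF, a secreted ER stress protein, likewise rose by 0.37 ± 0.09 in HCC70 and fell by 0.44 ± 0.09 in MDA-MB-231. The rise of MANF missed the threshold without HCC70 vehicle replicate 1 (limma adjusted p = 0.0564). The oxidase ERO1A and the lectin chaperone calnexin, CANX, fell in MDA-MB-231 by 0.51 ± 0.09 and 0.37 ± 0.07. Of 5 measured genes of ER-associated degradation 0 were called in HCC70 by limma, near the 12.5% lower and 9.18% higher of all genes. There 1 of the 5, SELENOS, had an unadjusted p under 0.05 (change 0.30 ± 0.12, adjusted p = 0.0993). In MDA-MB-231 1 of the 5 was called lower and 1 higher, also near the 17.0% and 10.8% of all genes. These were DERL2, which fell by 0.42 ± 0.10, and SEL1L, which rose by 0.27 ± 0.08. The SEL1L call ended without MDA-MB-231 JQ1 replicate 1 or 2 or vehicle replicate 2 or 3 (adjusted p = 0.0648 to 0.114), without the 3 arrays numbered 3 (0.0605), with all clusters tested (0.0771) and with each line fitted alone (0.0915).

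**Figure D4:**
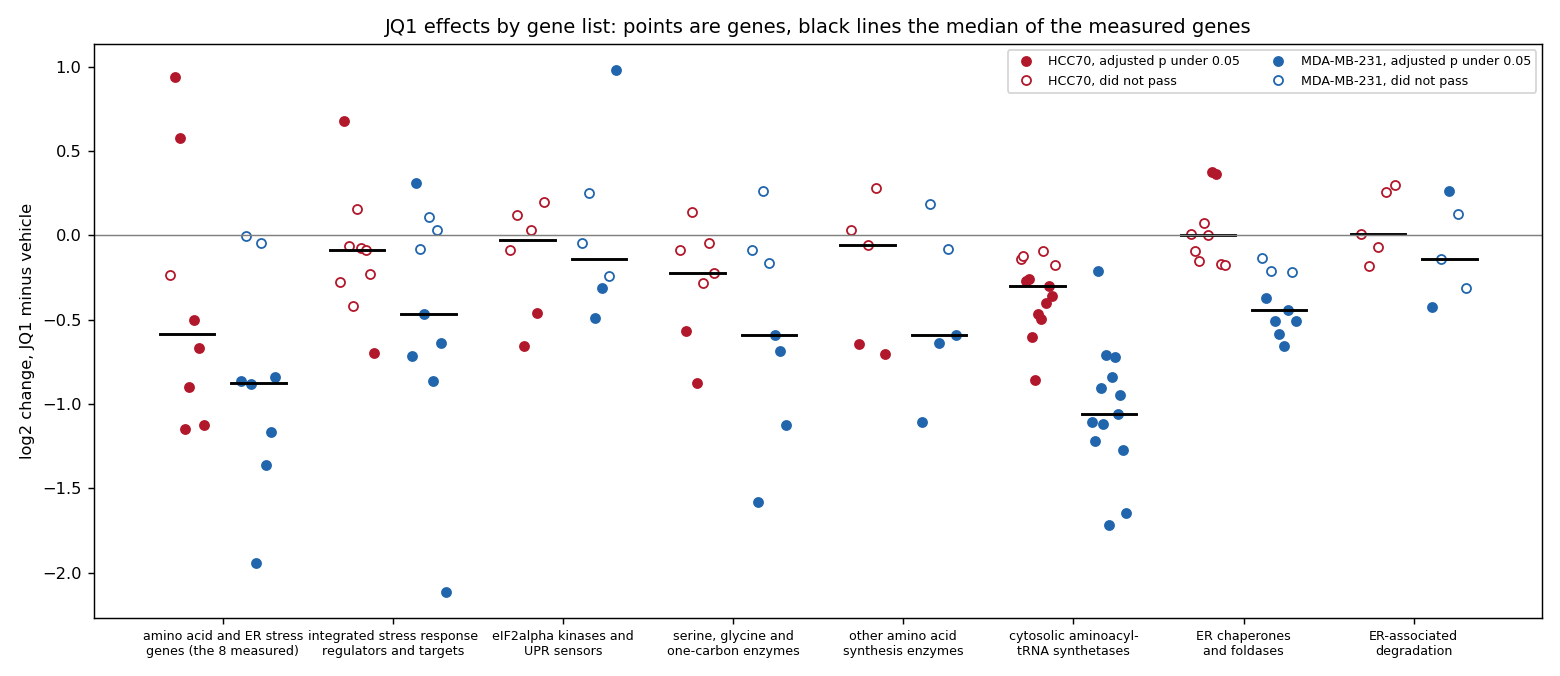
Log2 change with JQ1 (vertical axis) of each measured gene in the list of 8 amino acid and ER stress genes and in the 7 other lists, in HCC70 (red) and MDA-MB-231 (blue). Filled points passed at an adjusted p under 0.05 and black lines are medians; all 13 synthetases lie below 0 in both lines, and the median of the chaperones is 0.0053 in HCC70 and -0.44 in MDA-MB-231.

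Genes with the pattern nearest to a member were sought among all genes, by the root mean square difference of log2 values over the 12 arrays after the mean of each line was subtracted. It was computed for the 4 members with a called change whose size reached 1 on the log2 scale in either line. Nearest to PSAT1 were PRTFDC1, TM4SF1 and CILK1, at differences of 0.114, 0.136 and 0.145. Nearest to VLDLR were MARCKS, NUP205 and ETV6 (0.0465, 0.0524 and 0.062), and to XBP1 NDST1, COMMD7 and EIF2D (0.072, 0.0765 and 0.0892). Nearest to TRIB3 was WARS1, the tryptophanyl-tRNA synthetase, at 0.16, with log2 changes of -0.36 in HCC70 and -1.27 in MDA-MB-231, followed by RTKN (0.168) and SPA17 (0.169). All arrays enter this measure for both genes, so that it describes these arrays and carries no test.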

How the data were processed

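Per the labels, total RNA was labelled with biotin and hybridised to Human Gene 2.0 ST arrays, 1 array per sample. The values are log2 signals per transcript cluster as the authors deposited them; the submitters' processing notes name RMA, oligo and limma, and their versions and the genome build are not given in the sources used here. The table held 53617 clusters. Of these 16098 had 1 gene symbol, 0 several and 37519 none, and the brightest cluster was kept for the 779 genes with more than 1, which left 14884 genes. The arrays have no detection calls. A group mean under the lower quartile over all genes was marked as dim, which does not show that the signal is at a floor. Precision is limited by 3 arrays per group. Columns of other series numbered 0.

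Group means of all 12 arrays were fitted with limma 3.58.1 in R 4.3.3 (lmFit, eBayes), tested two-sided with Benjamini-Hochberg adjustment over all genes. SE is that of the coefficient, SD that of 3 arrays. The procedure was tested on simulated data. The members and lists were chosen with earlier results of these data known. For the other lists the text names up to 3 called genes with the smallest p per direction and line.

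Replicate numbers were checked as pairs by correlating, over genes, the deviations of a JQ1 and a vehicle array from their group means. Same-numbered arrays of MDA-MB-231 correlated at 0.155, 0.121 and 0.362, and differently numbered ones at -0.25 to 0.121. In HCC70 same-numbered arrays correlated at -0.059, 0.015 and 0.07, and differently numbered ones at -0.142 to 0.135. The main tests used no pairs in either line, so any pairing in MDA-MB-231 is left out of their p-values. Results were recomputed with a replicate block, which pairs the arrays of both lines by number. As coded, the difference between the vehicle groups under the block refers to replicate 1 and not to the group means. Results were also recomputed with each line fitted by itself, with eBayes trend and robust options, and with array weights. Features were varied by keeping genes over the median level, by averaging a gene's clusters and by testing all clusters. Scaling was varied by quantile normalization and by centring on medians. Each array was left out in turn, as were together the arrays numbered 3 of HCC70 with JQ1 and of both MDA-MB-231 groups. Background correction and scan batches were not analysed here.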

Additional observations from a re-analysis of the deposited data

Results flagged for a closer look

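The JQ1 effect differed between the lines by the interaction term (HCC70 minus MDA-MB-231, log2 scale, limma) for 7 of the 8 measured members. The differences were 0.80 for PSAT1, 0.50 for VLDLR, 1.46 for DDIT3, 0.94 for ATF3, -0.86 for STC2, 0.63 for ASNS and 0.86 for TRIB3. The change of DDIT3 was 0.58 in HCC70 and -0.88 in MDA-MB-231. Among the other pathway genes HYOU1 and MANF were called in opposite directions in the lines, with differences of 1.03 and 0.81 (adjusted p = 2.43e-05 and 0.00102). Groups of 3 arrays are too small for a test of single arrays that lie far from their group.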

How the results depend on the processing

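Of 680 changes of single members recomputed under alternatives, 626 kept their direction and their side of the threshold, 30 no longer passed, 5 newly passed and 19 changed sign. The 30 concern TRIB3 and DDIT3 in HCC70 and STC2 and TRIB3 in the difference of the effects, as given above; the 5 concern ASNS in HCC70 and XBP1 in the difference. The cause was not tested. The 19 that changed sign were all values that did not pass. ATF3 in MDA-MB-231 was 0.0721 after quantile normalization, 0.0628 after centring on array medians, 0.0032 with array weights, 0.0365 without the 3 arrays numbered 3, and -0.14 to 0.0692 when single arrays were left out; STC2 there was 0.0205 after centring and -0.23 to 0.13 when single arrays were left out. Between the vehicle groups PSAT1 was -0.0592 after quantile normalization, -0.011 after centring and -0.045 to 0.068 when single arrays were left out. The replicate block gave -0.0477 for PSAT1 and 0.13 for TRIB3 there. As coded, the block takes the difference between the vehicle groups at replicate 1 and not over the 3 replicates. Those sign changes therefore come from the coding and do not show a dependence on the pairing. With the replicate block no other member's call or direction changed. Over all genes it called 4210 in MDA-MB-231 in place of 4139 and 3236 in HCC70 in place of 3229. For the difference of the effects it called 2171 in place of 2228. Between the vehicle groups it called 5960 in place of 7000, a count that rests on the replicate 1 coding given above.

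Counts that moved by more than 1.5 times were as follows. With all transcript clusters 7496 genes were called in MDA-MB-231 (4139 over genes), 4984 in HCC70 (3229) and 15776 between the vehicle groups (7000), since more features were tested, and with array weights 5110 in HCC70. Members called higher in HCC70 were 1 in place of 2 among genes above the median level, where DDIT3 was not tested, and with all clusters, and 1 to 2 when single arrays were left out. Members with a negative difference of the effects were 0 in place of 1 among genes above the median level, where STC2 was not tested, and with all clusters, 2 after quantile normalization and with array weights, and 0 to 1 when single arrays were left out. Members lower in vehicle-treated HCC70 were 1 in place of 2 among genes above the median level. In the other lists such moves were by 1 or 2 genes, apart from the synthetases in HCC70 (5 in place of 9, as above). Signal over background could not be judged for single probes, and whether the dim DDIT3 level in HCC70 limits its fold was not tested.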
